A study of Mus musculus with 3 samples.

Results

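Endoneurial mesenchymal cells were compared between the nerve bridge 21 days and 7 days after injury of the mouse sciatic nerve. The cells are those that the deposited cell annotation places in the class MES_ENDO: 487 cells of the day 21 library and 255 of the day 7 library, which makes 742 of the 5891 annotated bridge cells and of the 7234 annotated cells in all 3 libraries. They were 11.8% of the annotated cells at day 21 and 14.3% at day 7. The third library, from intact nerve, holds 663 cells of the same class, and its levels are given as a reference. All 3 libraries come from mice that carry Pdgfrb-cre/ERT2 and the R26-TomatoLSL reporter, so only cells in which the Pdgfrb promoter had driven an active recombinase are red, and red cells were sorted by FACS. Strain background, age, sex and the time of induction are not given in the labels. Nerves were pooled before sorting, each group is 1 library, and only the intact nerve was treated with beads that remove myelin.

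A peripheral nerve is wrapped by the epineurium, its bundles of axons are enclosed by the barrier-forming perineurium, and the endoneurium is the loose tissue inside, where fibroblast-like cells lie between Schwann cells, axons and capillaries. After a nerve is cut, a bridge of new tissue joins the stumps, and Schwann cells and axons later grow through it. Endoneurial cells of the resting nerve make collagens, decorin and apolipoprotein D, and fibroblasts of a wound typically turn on provisional matrix, growth factors and chemokines that recede as the tissue matures.

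Levels are unique molecular identifier (UMI) counts summed over the endoneurial cells of a library, as CPM, the share of the summed UMIs scaled so that each library has the same total. The sums were 4351337 UMIs at day 21, 3736470 at day 7 and 3470007 in intact nerve, with a median of 8649, 15143 and 4779 UMIs a cell. With 1 library a side there is no replicate check and no test: each ratio compares 2 libraries, and the 95% intervals printed with it cover the counting of UMIs only, not the spread between cells, mice or preparations. The median mitochondrial share was 1.43% at day 21 and 0.945% at day 7, and 1 endoneurial barcode in each library also occurs in another library.

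The class label was set beside its markers. These were chosen with earlier results of these data known, so their levels describe the class and are no independent check. Among the 6 annotated classes, 9 of 10 endoneurial markers peaked in the endoneurial class in both bridge libraries. Their summed level was 18299 CPM in it against 829 to 1719 CPM in the other classes at day 21, and 18670 CPM against 460 to 5014 CPM at day 7. Most of the endoneurial sum was Apod, whose levels are given below. The endoneurial class was highest for 0 of 10 perineurial and 0 of 11 epineurial markers in either library. Markers of other cells were low and did not stay level. The summed level of 10 Schwann cell markers was 97.2 CPM at day 7 and 306 CPM at day 21, and the myelin gene Mbp was at 2.14 and 35.6 CPM. Mbp also stood at 102 CPM at day 7 and 1947 CPM at day 21 in the barcodes without a class. The summed level of 10 myeloid markers was 93.9 CPM at day 7 and 19.99 CPM at day 21 (Lyz2, 36.4 and 4.37 CPM). At day 7 the endoneurial class was the highest for 6 of these 10, and the other classes summed to 30.4 to 67.6 CPM. The summed level of 8 pericyte markers was 239 and 452 CPM, that of 10 endothelial markers 68.8 and 28.0 CPM, and that of 9 lymphocyte markers 1.61 and 0.460 CPM with 7 of them at 0 in both libraries. The part of these cells or their free RNA in the gene differences was not tested. Genes on these lists were kept out of the largest ratios described next.

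Of 8154 genes with at least 10 CPM in either library, 360 (4.42%) were over 2-fold higher at day 21 and 343 (4.21%) over 2-fold lower. These 2 shares are the background for every list count below. The median log2 ratio, day 21 over day 7, was 0.03, and the middle 50% of genes lay between -0.27 and 0.32. For 155 genes on the higher side and 185 on the lower side the whole counting interval was beyond 2-fold. At day 21 a larger share of the endoneurial cells' RNA came from myocilin, interstitial collagens, decorin and caveolae genes. A smaller share came from amphiregulin, retinoid uptake and synthesis genes, 4 of 7 secreted Wnt inhibitors tested, and tenascin C. The plot of each gene's ratio against its level places both ends.

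**Figure D1:**
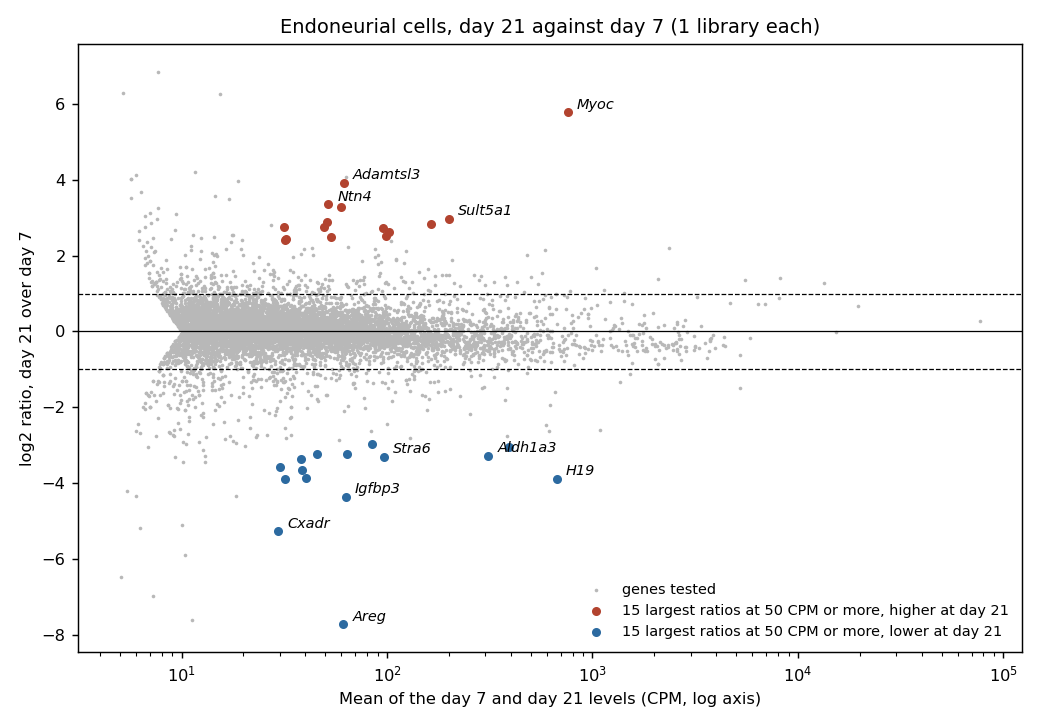
Each point is a gene with at least 10 CPM in either bridge library: the x axis is the mean of its 2 levels in endoneurial cells (CPM, log axis), the y axis its log2 ratio, day 21 over day 7, and the dashed lines mark 2-fold. Coloured points are the 15 largest ratios each way among genes with at least 50 CPM in the higher library; of them Myoc at 5.78 and Areg at -7.73 lie farthest out, and grey points beyond them are genes of low level.

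Myoc encodes myocilin, a secreted glycoprotein best known from the eye's outflow tissue, where mutant forms cause glaucoma. The gene lies at chr1:162639155-162649693 on the plus strand (mm10). Its level was 27.0 CPM at day 7, 1492 CPM at day 21 and 1263 CPM in intact nerve, so that day 21 stood near the intact level and day 7 far below both. The ratio was 55.2-fold (95% interval 45.4 to 67.9, log2 5.78), and the log2 ratio was 5.07 when each cell was weighted alike. After each cell was thinned to 2000 UMIs, 3.14% of the day 7 cells (1.36 to 6.09%) and 81.3% of the day 21 cells (77.6 to 84.7%) had a Myoc UMI. Another random draw gave 5.10% (2.74 to 8.56%) and 82.3% (78.7 to 85.6%). At day 7 the 5% of cells with most Myoc held 85.1% of its UMIs, against 15.9% at day 21, so the day 7 signal sat in few cells and the day 21 signal in most. The other annotated cells also differed in this direction, at 34.4 and 259 CPM. Among them at day 21, 34.1% of perineurial and 19.3% of epineurial cells had a Myoc UMI after thinning, and at day 7 0 of 241 perineurial cells and 7.25% of epineurial cells did.

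Amphiregulin, encoded by Areg at chr5:91139599-91148432 on the plus strand, is a membrane-anchored ligand of the EGF receptor that is shed to act on neighbouring cells. It was at 122 CPM at day 7, at 0.460 CPM at day 21, where it rests on 2 UMIs, and at 0 in intact nerve. The day 21 level was 266-fold lower, with a wide interval of 73.1 to 2199 that reflects those few UMIs. Areg was a minority signal at day 7: 52 of 255 cells had a UMI, and the top 5% of cells held 73.7% of the UMIs. Cxcl2 was found in 96 day 7 cells, and 28 cells held both. After thinning, 8.63% of endoneurial cells had an Areg UMI at day 7 and 0.411% at day 21. The shares were 9.42% and 0.258% in the class MES_DIFF, and 5.81% and 0.435% in perineurial cells. Dividing cells had 5.34% and 0.840%, and epineurial cells 1.18% and 0.195%. The lower Areg at day 21 was therefore not particular to endoneurial cells. Areg was thus a signal of some cells and Myoc, at the later time, of most.

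Myoc and Areg have the largest ratio each way among the genes named, and the 250 bases before their RefSeq starts (GRCm38.p6) are shown for that reason, 5′ to 3′ on the gene's strand. Capitals mark the motifs found. The Myoc stretch is chr1:162638900-162639149 and the Areg stretch chr5:91139349-91139598.
Myoc: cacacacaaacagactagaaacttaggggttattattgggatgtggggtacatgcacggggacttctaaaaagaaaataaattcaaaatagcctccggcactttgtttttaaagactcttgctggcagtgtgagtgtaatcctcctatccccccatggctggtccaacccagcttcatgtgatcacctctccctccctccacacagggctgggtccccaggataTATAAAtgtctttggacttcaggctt
Areg: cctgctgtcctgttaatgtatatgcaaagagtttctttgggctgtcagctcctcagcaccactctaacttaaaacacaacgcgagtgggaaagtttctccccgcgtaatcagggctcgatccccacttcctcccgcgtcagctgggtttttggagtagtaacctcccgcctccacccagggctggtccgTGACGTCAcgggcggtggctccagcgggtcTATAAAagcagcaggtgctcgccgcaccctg
Both strands were searched for the TATA box TATAAA, the AP-1 sites TGACTCA and TGAGTCA, and the cAMP response element TGACGTCA, which share letters but no full match. TATAAA lies 26 to 21 bases before the Myoc start and 31 to 26 bases before the Areg start, and TGACGTCA lies 61 to 54 bases before the Areg start. Of 32851 mouse promoter stretches of this length, 12.4% held TATAAA, 4.46% an AP-1 site and 1.55% TGACGTCA. These are matches of letters and nothing more.

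Next to Myoc, the 15 largest ratios toward day 21, among genes with at least 50 CPM and a UMI in 10% of cells at day 21, were led by Adamtsl3, Ntn4 and Ace. Adamtsl3, an ADAMTS-like matrix glycoprotein without protease activity, was at 7.49 CPM at day 7, 115 CPM at day 21 and 89.3 CPM in intact nerve, a 15.4-fold difference (10.5 to 23.4). Ntn4, a netrin that binds laminin networks, was at 9.10, 94.2 and 157 CPM in the same order (10.4-fold, 7.29 to 15.2). Ace, the angiotensin-converting enzyme, was at 10.97, 108 and 109 CPM (9.89-fold). Each of the 3 was in a small part of the day 7 cells: Ntn4 in 1.57% and Ace in 1.96% after thinning, against 14.99% and 17.0% at day 21.

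Vwa1 makes WARP, a perlecan-binding matrix protein of nerve basement membranes. It was at 40.4 CPM at day 7, 288 CPM at day 21 and 658 CPM in intact nerve (7.14-fold). Enpp2 makes autotaxin, the secreted enzyme that produces lysophosphatidic acid, and was at 25.2, 167 and 561 CPM (6.62-fold, with a log2 ratio of 2.72 that was 2.08 after thinning). Both stood at day 21 between the day 7 and the intact level. In the other annotated cells Enpp2 was low throughout, at 4.78 and 9.68 CPM.

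The rest of these genes were the sulfotransferase Sult5a1 (7.87-fold, 45.0 to 354 CPM), the cytokine Il17d (7.46-fold, log2 2.89 and 2.06 after thinning), the membrane dipeptidase Dpep1 (6.81-fold), the mitochondrial calcium-binding protein gene Efhd1 (6.81-fold), caveolin Cav1 (5.75-fold), the Wnt inhibitor Sfrp1 (5.64-fold, log2 2.49 and 3.85 after thinning), the ADP receptor P2ry1 (5.50-fold), the kinase gene Nrk (5.41-fold) and Dlk1. Dlk1, an imprinted gene for a membrane protein that restrains adipocyte formation, was at 28.1 CPM at day 7, 176 CPM at day 21 and 140.3 CPM in intact nerve (6.25-fold, log2 2.64 and 3.23 after thinning). In the other annotated cells it was at 369.8 CPM at day 7 and 58.9 CPM at day 21, the opposite order, and in the epineurial class at 651 and 95.3 CPM. For each of the 15 genes the intact level was above the day 7 level. Gelsolin, Gsn, an actin-severing protein gene chosen after its values were seen, was among the most abundant at 839.8 CPM at day 7, 3862 CPM at day 21 and 15937 CPM in intact nerve (4.60-fold).

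Toward day 7, the largest ratios after Areg by the same rule included those of Cxadr, Igfbp3, Gjb2, H19, Eln, Emb, Cilp, Stra6, Aldh1a3, Tnc, Kng2, Cxcl2 and Wif1. Cxadr, a junction adhesion molecule, was at 57.5 CPM at day 7, at 1.38 CPM at day 21 and at 1.15 CPM in intact nerve (41.7-fold lower, 18.9 to 115, from 6 UMIs at day 21). Gjb2, the gap junction protein connexin 26, was at 59.7 and 3.91 CPM and at 0 in intact nerve (15.3-fold lower). In the other annotated cells Gjb2 was at 39.2 and 35.1 CPM, in a pool whose make-up differed between libraries. Perineurial cells were 241 of 1525 cells of that pool at day 7 and 2069 of 3624 at day 21. The part of this shift in the pooled Gjb2 level was not tested. After thinning, 6.67% of day 7 endoneurial cells had a Gjb2 UMI, against 22.8% of perineurial, 9.22% of dividing and 9.09% of MES_DIFF cells. The day 7 share was 0.148% in epineurial and 1.06% in MES_EPI-diff cells. At day 21, 0.821% of endoneurial, 2.07% of MES_DIFF and 2.52% of dividing cells had one. Among perineurial cells, 55 of 241 had one at day 7 and 207 of 2069 at day 21. The lower Gjb2 share at day 21 was therefore not particular to endoneurial cells. The non-coding RNA H19, the imprinted neighbour of Igf2, was abundant, at 1253 CPM at day 7, 84.6 CPM at day 21 and 116 CPM in intact nerve (14.8-fold lower, 13.3 to 16.5). It was in 66.7% of day 7 and 10.7% of day 21 cells after thinning, and the other annotated cells had a like difference, 839 and 53.9 CPM.

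Emb, an immunoglobulin-family membrane protein gene, was 12.2-fold lower at day 21. Cilp, a matrix protein gene known from cartilage, was 10.5-fold lower and Kng2, a kininogen gene, 9.44-fold lower. These 3 genes had 55.9 to 82.4 CPM at day 7 and 4.60 to 8.73 CPM at day 21. For each of the 15 lower genes the intact level was under the day 7 level. Because day 7 enters every one of these orders, they describe levels and are no separate support.

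**Figure D2:**
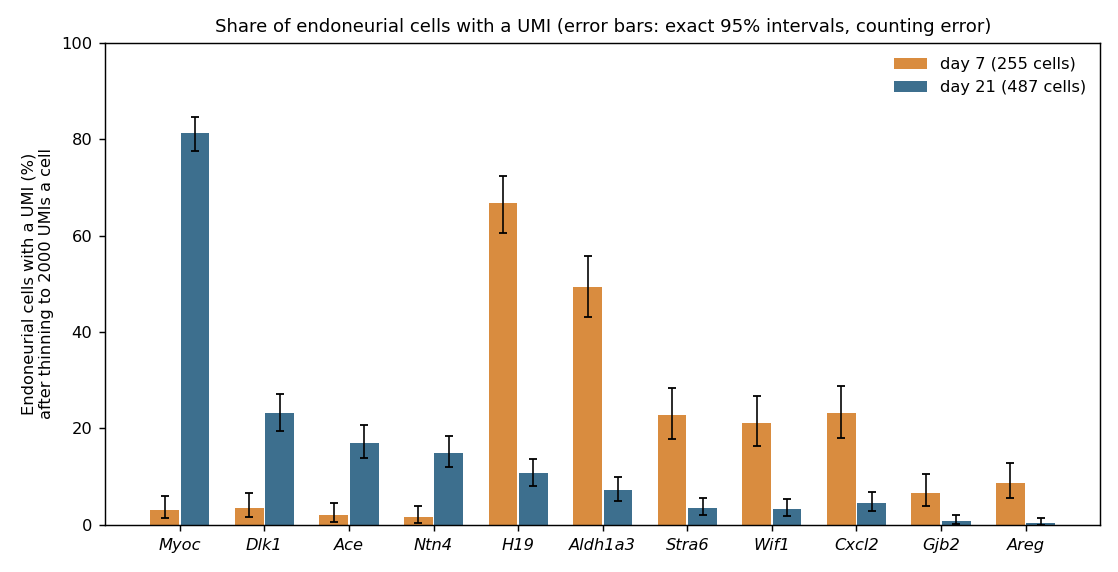
Bars give the percent of endoneurial cells with at least 1 UMI of each gene after every cell was thinned to 2000 UMIs, for 255 cells at day 7 and 487 at day 21, with exact 95% binomial intervals for counting error. Myoc goes from 3.14% to 81.3% of cells and Aldh1a3 from 49.4% to 7.19%.

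Retinoid genes stood mostly on the day 7 side. Vitamin A enters cells through STRA6 and is oxidised to retinoic acid by retinol and retinaldehyde dehydrogenases, and CYP26 enzymes break retinoic acid down. Of 13 genes listed, 10 were at 10 CPM or more in either library: 7 were over 2-fold lower at day 21 and 2 over 2-fold higher, beside 4.21% and 4.42% of all genes tested. The list's median log2 ratio was -1.73, against -0.16 for the same genes in the other annotated cells and 0.03 over all genes tested. Within 4 of the 5 other classes the median of the same genes was also negative, between -1.04 and -0.59, and it was 0.81 in the class MES_EPI-diff, which has 22 cells at day 21. Such a filter keeps genes through the library where they are high.

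On the uptake side, Stra6 was at 176 CPM at day 7, 17.7 CPM at day 21 and 2.88 CPM in intact nerve (9.92-fold lower, 7.83 to 12.7). The enzyme gene Aldh1a3, which makes retinoic acid, was at 565 CPM at day 7, 57.9 CPM at day 21 and 17.3 CPM in intact nerve (9.75-fold lower, 8.55 to 11.2). Perineurial cells had a like difference in Aldh1a3, from 51.5% to 5.99% of cells after thinning, and all other annotated cells together were at 253 and 31.8 CPM. For both genes day 7 was the high library and day 21 stood above intact nerve. Dhrs3, which turns retinaldehyde back to retinol, was at 59.1, 8.73 and 38.9 CPM (6.77-fold lower, with a log2 ratio of -2.74 that was -2.01 after thinning), and so was lower at day 21 than in intact nerve.

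Further lower genes, named after their values were seen, were Rdh10 (187 to 83.0 CPM), the retinoic acid-binding protein gene Crabp2 (74.4 to 34.7 CPM) and Aldh1a2 (12.8 to 2.53 CPM). The 2 higher genes were the breakdown enzyme gene Cyp26b1, at 26.2 CPM at day 7, 54.7 CPM at day 21 and 152 CPM in intact nerve, and Rarres2, a retinoid-inducible chemoattractant precursor gene, at 231, 541 and 863 CPM. The lower genes thus span uptake, binding and both directions of retinoid oxidation, while the breakdown gene was higher. Aldh1a1, another gene for a retinoic acid-making enzyme, was at 6.69 and 12.4 CPM, within 2-fold. In single cells thinned to 2000 UMIs, 72.5% of day 7 cells (66.6 to 77.9%) held UMIs of at least 2 of the 7 lower genes, against 9.24% at day 21 (6.82 to 12.2%) and 3.32% in intact nerve. The 7 genes were picked for their ratios, so these shares describe how they are spread over cells. Among other classes at day 7, Stra6 was in 24.5% of perineurial and 1.04% of epineurial cells, next to 22.7% of endoneurial cells.

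**Figure D3:**
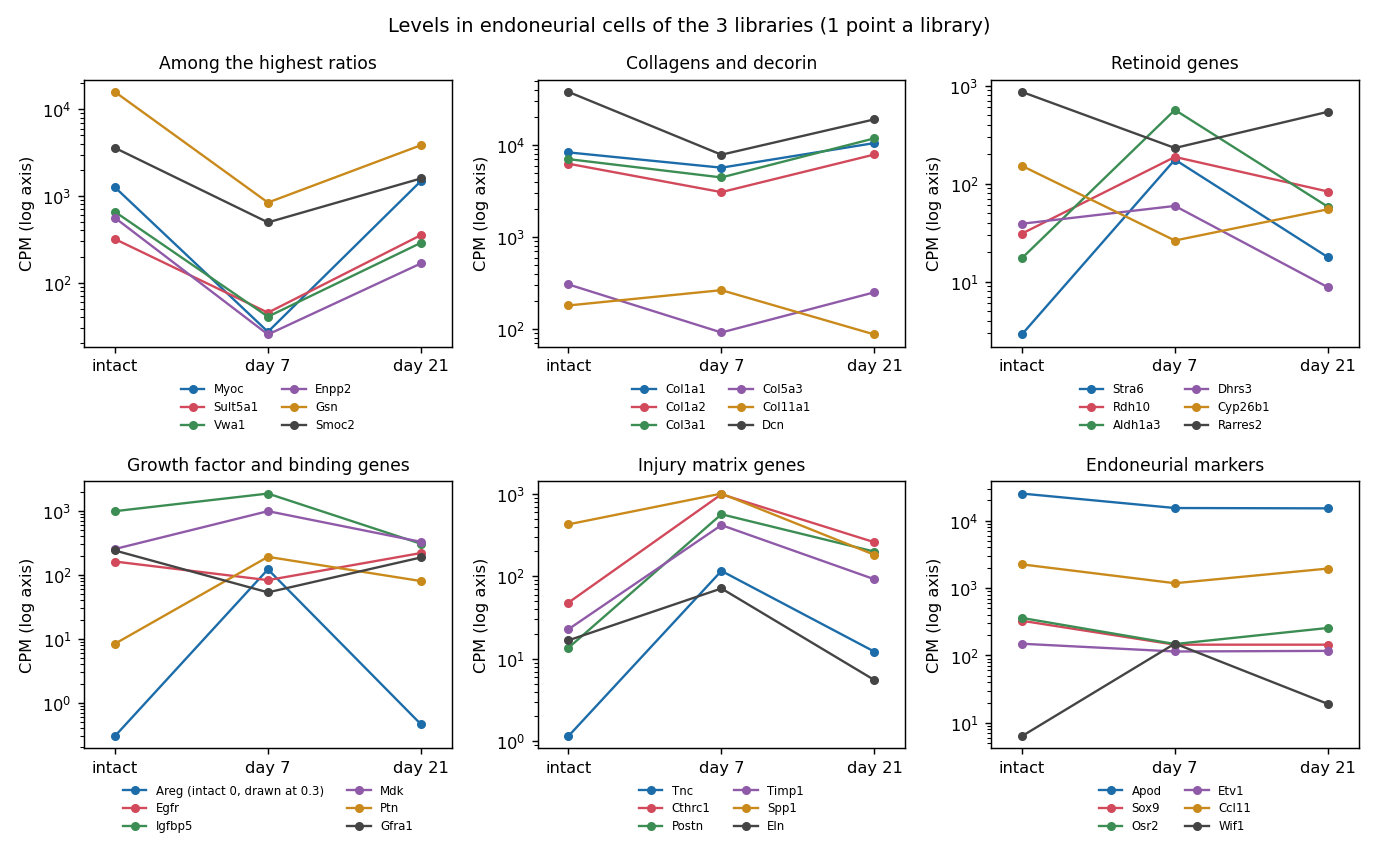
Level in endoneurial cells (CPM, log axis) of 6 genes a panel in the intact nerve, day 7 and day 21 libraries, with 1 point a library joined by lines. Myoc is lowest at day 7 (27.0 CPM) and at 1492 CPM at day 21, Stra6 and Aldh1a3 are highest at day 7, and the endoneurial markers Apod and Sox9 are level between the bridge libraries.

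Signals from the cells to their neighbours differed by family. Secreted Wnt inhibitors bind Wnt proteins or their receptors outside the cell. Of 9 listed, 7 were tested, and 4 were over 2-fold lower and 1 higher at day 21 (median -2.44, other annotated cells 0.20). The same 7 genes had a median of -1.83 in the perineurial class, -0.04 in the epineurial class and 0.08 to 1.32 in the other 3 classes. Wif1, which binds Wnt ligands and is also an endoneurial marker, was at 150.1 CPM at day 7, 19.1 CPM at day 21 and 6.34 CPM in intact nerve (7.87-fold lower, 6.24 to 10.04). Sfrp4 was at 169, 31.0 and 12.1 CPM (5.44-fold lower). Sfrp2, which is also on the epineurial marker list and was at 335 CPM in the other annotated cells at day 7, was at 35.1 and 1.61 CPM, with 93.9% of its day 7 UMIs in 5% of the cells, and its log2 ratio of -4.35 was -3.35 without cells that express 4 or more cell cycle genes. Sfrp1 was the opposite case, at 16.1 CPM at day 7 and 90.5 CPM at day 21. Of Wnt target genes, Ccnd1, cyclin D1, was at 179 CPM at day 7, 418 CPM at day 21 and 101 CPM in intact nerve (2.33-fold higher). On that list 2 of 4 tested members were higher and 1 lower (median 0.64). The lower member had the largest ratio of the list, a log2 ratio of -6.99, against 1.22 for Ccnd1.

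EGF family genes were represented by 3 tested members. Areg was lower, as given above. The receptor gene Egfr was at 82.7 CPM at day 7, 219.7 CPM at day 21 and 162 CPM in intact nerve (2.66-fold higher), and the ligand gene Hbegf was at 27.6 and 15.6 CPM, within 2-fold. Areg and the gene of its receptor therefore stood in opposite order across the bridge libraries.

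Of 12 genes of the insulin-like growth factor axis, 9 were tested and 4 were over 2-fold lower at day 21, with 0 higher (median -0.46). The summed level went from 14134 to 6630 CPM, with 6451 CPM in intact nerve. In the other annotated cells, whose make-up differed between libraries, the summed level was 13162 CPM at day 7 and 17587 CPM at day 21. Most of the endoneurial sum came from genes of the IGF-binding protein family. Igfbp7 was at 7703, 2755 and 2092 CPM at day 7, day 21 and in intact nerve, Igfbp5 at 1868, 306 and 990.5 CPM, and Igfbp3 at 120.4, 5.75 and 3.46 CPM. The growth factor gene Igf2 was at 20.6 CPM at day 7 and rests on 1 UMI at day 21 (89.7-fold lower, 15.6 to 3587). Its log2 ratio of -5.91 was -3.60 after thinning.

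Neurotrophic factors support the survival and growth of axons. Of 16 listed, 7 were tested, and 4 were lower and 1 higher by over 2-fold (median -1.11, other annotated cells -0.86). Midkine, Mdk, was at 992 CPM at day 7, 328 CPM at day 21 and 254 CPM in intact nerve (3.02-fold lower). Pleiotrophin, Ptn, was at 191, 80.0 and 8.36 CPM (2.39-fold lower). The co-receptor gene Gfra1, which presents GDNF to its receptor, was at 53.3, 187 and 241 CPM (3.52-fold higher, 3.01 to 4.13), and in the other annotated cells at 13.4 and 109 CPM. Lif, a cytokine gene named after its values were seen, had low levels at both times, 15.5 and 5.06 CPM.

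The TGF-beta pathway had 15 tested genes, of which 5 were lower and 1 higher by over 2-fold (median -0.88, other annotated cells -0.22). Ligand genes were on the lower side: Tgfb1 at 65.0 CPM at day 7 and 23.9 CPM at day 21, and Tgfb2 at 22.7 and 8.50 CPM. The Tgfb2 log2 ratio of -1.41 became -0.50 when every cell was thinned to 2000 UMIs. Skil, a feedback inhibitor that the pathway itself induces, was at 103 and 26.0 CPM (3.95-fold lower). Ltbp4, which tethers latent TGF-beta to the matrix, was the higher gene, at 190.3 and 473 CPM (2.49-fold).

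Of 7 hedgehog and 4 Notch genes tested, 0 were past 2-fold in either direction, with medians of 0.12 and -0.05. With 4.42% and 4.21% of all genes past 2-fold, lists of this size would hold few such genes. The BMP list had 1 higher and 0 lower of 10 tested, the higher one being the modulator gene Bmper (log2 1.72). Pdgfrb, whose promoter drives the Cre, was at 123 CPM at day 7, 299 CPM at day 21 and 382 CPM in intact nerve (2.43-fold higher, 2.18 to 2.71). Pdgfra, the fibroblast receptor gene, was at 403, 701 and 1156 CPM (1.74-fold higher). The TdTomato transgene itself was at 93.1, 86.4 and 85.6 CPM.

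Matrix genes differed by kind. Of 15 tested fibrillar and interstitial collagen genes, 4 were over 2-fold higher at day 21 and 1 lower (median log2 ratio 0.89). In the other annotated cells the same genes had a median of -0.67. Their summed level in endoneurial cells was 16612 CPM at day 7, 35554 CPM at day 21 and 25455 CPM in intact nerve, or 1.66%, 3.56% and 2.55% of all UMIs. The other annotated cells had 39555 CPM at day 7 and 27405 CPM at day 21. The make-up of the others differed between libraries: 241 of 1525 were perineurial at day 7 and 2069 of 3624 at day 21. Within each of the 5 other classes the median of the same genes lay between -0.45 and -0.10, so the endoneurial class had the only positive median of the 6. That difference was not tested.

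Col3a1, the type III chain of loose connective tissue, was at 4454 CPM at day 7, 11851 CPM at day 21 and 7045 CPM in intact nerve (2.66-fold higher, 2.61 to 2.71). Col1a2 was at 3084, 7908 and 6279.5 CPM (2.56-fold higher). Col1a1, added after its values were seen, was at 5684, 10527 and 8335 CPM (1.85-fold higher), and so remained within 2-fold. Day 21 was the highest library for these 3 chains. Col11a1, a minor fibril chain known from cartilage, was the lower gene at 265, 87.6 and 181 CPM (3.03-fold lower).

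Small leucine-rich proteoglycans coat collagen fibrils and set their width. Of 9 tested, 5 were over 2-fold higher at day 21 and 0 lower (median 1.20, other annotated cells 0.34). Within each of the 5 other classes the median of the same genes was also positive, between 0.51 and 0.99. Decorin, Dcn, was at 7861 CPM at day 7, 19057 CPM at day 21 and 37880.3 CPM in intact nerve (2.42-fold higher, 2.39 to 2.46), so that day 21 stood between the others. Its log2 ratio was 1.28, and 1.52 in the other annotated cells, which had 3691.5 CPM at day 7 and 10585 CPM at day 21. Ecm2, a proteoglycan-related matrix gene, was at 31.3, 143 and 78.4 CPM (4.56-fold higher). Asporin, Aspn, was at 42.8, 109.9 and 5.48 CPM (2.57-fold higher), and here both bridge libraries were above intact nerve. Biglycan, Bgn, named after its values were seen, was at 859 and 584 CPM, within 2-fold.

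Matricellular proteins, which act on cells without building fibres, were split, with 4 higher and 6 lower of 16 tested (median 0.22, summed level 9853 CPM at day 7 and 12524 CPM at day 21). Tenascin C, Tnc, was at 116 CPM at day 7, 12.2 CPM at day 21 and 1.15 CPM in intact nerve (9.54-fold lower, 7.16 to 12.9). The top 5% of day 7 cells held 75.6% of its UMIs, and without cells that express 4 or more cell cycle genes the log2 ratio of Tnc was -2.36 in place of -3.24. Osteopontin, Spp1, was at 1005, 182 and 426 CPM (5.53-fold lower) and Cthrc1, a collagen-reducing secreted protein gene, at 985, 258 and 47.8 CPM (3.81-fold lower). Periostin, Postn, named after its values were seen, was at 564, 199 and 13.5 CPM. On the other side Smoc2, a calcium-binding matricellular gene, was at 496, 1595 and 3596 CPM (3.22-fold higher).

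Of 14 elastic fibre and fibronectin genes tested, 4 were over 2-fold lower and 0 higher (median -0.38, other annotated cells -0.67). Elastin, Eln, was at 71.2 CPM at day 7 and 5.52 CPM at day 21, but 89.8% of its day 7 UMIs lay in 5% of the cells, and its log2 ratio of -3.66 was -2.92 without the cells that express cell cycle genes. Mfap4 was at 28.6 and 3.91 CPM (7.33-fold lower). Mfap2, a microfibril gene present in most cells, was at 651 and 307 CPM (2.12-fold lower), and Emilin1 at 61.8 and 20.9 CPM (2.96-fold lower). The protease inhibitor gene Timp1 was at 417, 91.9 and 22.8 CPM at day 7, day 21 and in intact nerve (4.54-fold lower). Lysyl oxidase, Lox, which cross-links collagen and elastin, was at 44.7 and 17.7 CPM (2.53-fold lower), the 1 gene past 2-fold of 18 tested on its list.

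Basement membrane genes showed small differences, with 0 higher and 1 lower of 14 tested and a median of 0.40. Laminin alpha 2, Lama2, was at 270.0 and 483 CPM (1.79-fold higher) and Col15a1 at 896 and 1541 CPM (1.72-fold higher). The lower gene was Agrn, agrin, at 20.3 and 7.81 CPM. Of 6 tested genes for hyaluronan and large proteoglycans, 1 was lower, versican, Vcan, at 357 and 157 CPM.

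**Figure D4:**
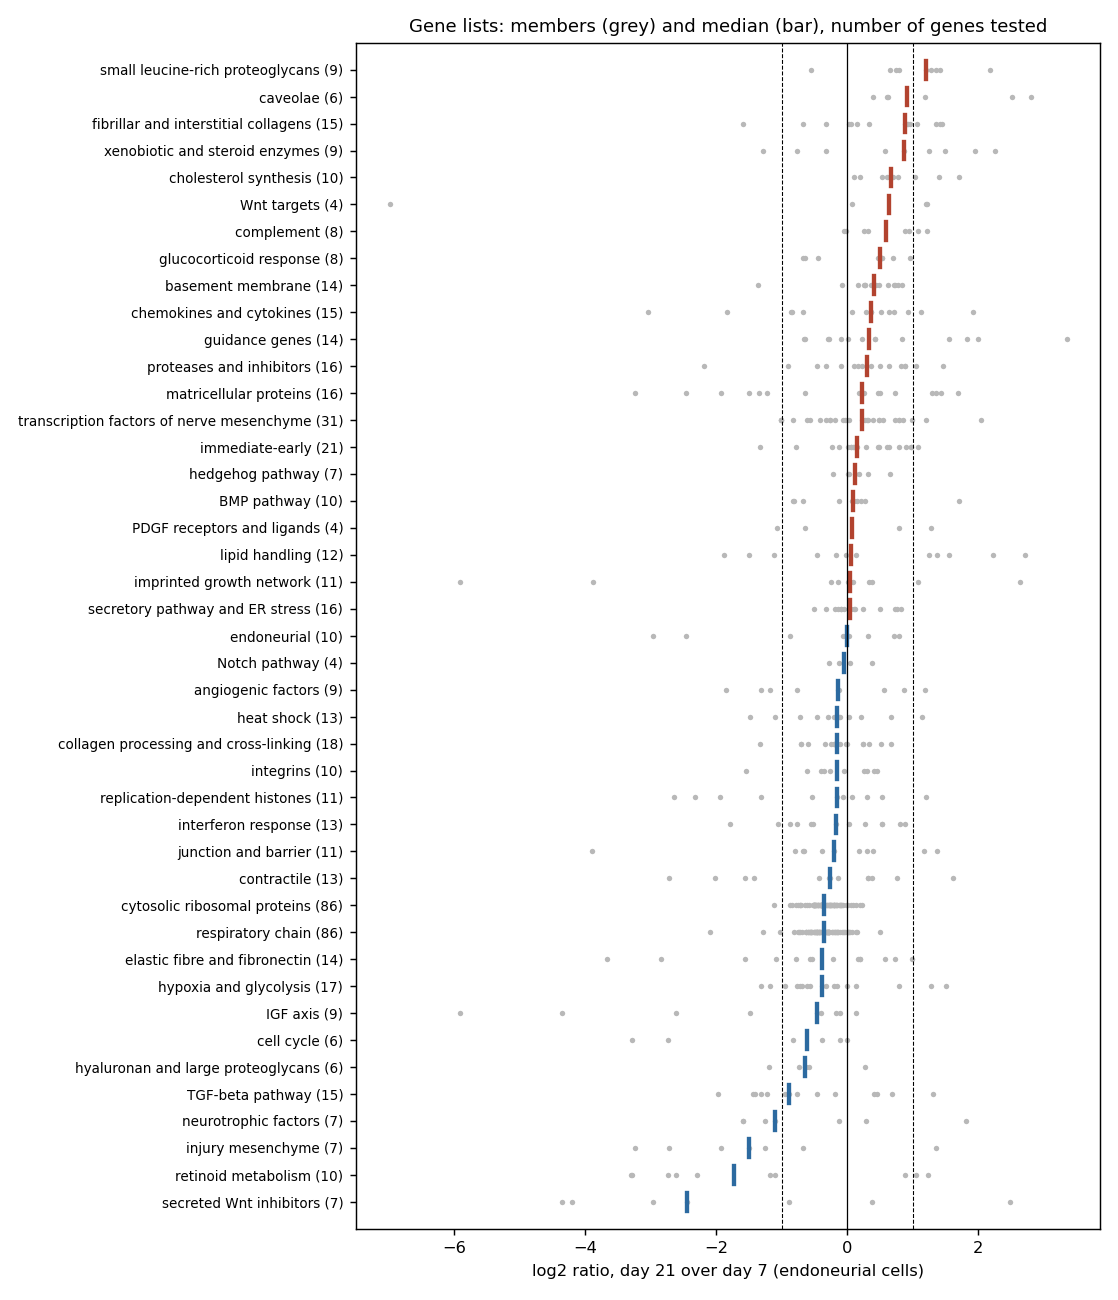
Each row is a list with at least 4 genes tested, with its number in parentheses: grey points are the log2 ratios of its genes, day 21 over day 7 in endoneurial cells, and the bar is their median. Secreted Wnt inhibitors (-2.44) and retinoid metabolism (-1.73) lie at the low end and small leucine-rich proteoglycans (1.20) at the high end, while all genes tested have a median of 0.03.

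Immune signals were mixed. Of 15 tested chemokine and cytokine genes, 2 were over 2-fold higher and 2 lower at day 21 (median 0.36), beside 4.42% and 4.21% of all genes tested. Cxcl2, which draws in neutrophils, was at 702 CPM at day 7, 85.3 CPM at day 21 and 57.1 CPM in intact nerve (8.24-fold lower, 7.39 to 9.21), and the top 5% of day 7 cells held 65.4% of its UMIs. Cxcl14 was at 165 and 46.2 CPM, a log2 ratio of -1.83 that was -0.96 after thinning. Cxcl12, a retention signal for blood-forming and immune cells, was at 46.3, 175 and 208 CPM (3.78-fold higher), and Il34, a ligand of the macrophage growth factor receptor, had a log2 ratio of 1.13 that was 0.46 after thinning. Ccl2, which attracts monocytes and was added after its values were seen, was at 1986 and 1111 CPM (1.79-fold lower).

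Complement genes were on the day 21 side, with 2 higher and 0 lower of 8 tested (median 0.60, other annotated cells 0.95). C1s1 was at 242 and 467 CPM (1.93-fold higher). C2 was at 11.8 and 27.6 CPM, a log2 ratio of 1.22 that was 0.29 after thinning. Of 13 interferon response genes, 0 were higher and 2 lower, beside 4.42% and 4.21% of all genes tested. The immunoproteasome gene Psmb8 was at 70.7 and 20.5 CPM (3.45-fold lower).

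Metabolic genes differed by pathway. Of 12 lipid handling genes tested, 5 were higher and 3 lower by over 2-fold (median 0.06). Lpl, the lipoprotein lipase gene, was at 22.7 CPM at day 7, 107 CPM at day 21 and 123 CPM in intact nerve (4.70-fold higher). Apoe was at 289.8, 852 and 1276 CPM (2.94-fold higher), while 37.3% of day 7 and 40.9% of day 21 cells held it after thinning. The top 5% of cells held 35.7% of the Apoe UMIs at day 7 and 42.5% at day 21. Pltp, a phospholipid transfer protein gene, was at 428, 151 and 167 CPM (2.84-fold lower). Cholesterol synthesis had 3 higher and 0 lower of 10 tested (median 0.67), all at low levels: the list summed to 150.4 CPM at day 7 and 245 CPM at day 21, against 1015 CPM in intact nerve. Xenobiotic and steroid enzymes had 4 higher and 1 lower of 9 tested (median 0.86), with the glutathione transferase gene Mgst1 at 35.6, 138 and 159 CPM (3.89-fold higher) and Cyp1b1 at 43.4, 17.7 and 60.8 CPM (2.45-fold lower).

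Ribosomal and respiratory genes were mostly lower by less than 2-fold. Of 86 cytosolic ribosomal protein genes tested, 1 was past 2-fold, on the lower side, but the median was -0.35, and the list held 18.3% of UMIs at day 7, 14.5% at day 21 and 12.9% in intact nerve. Of 86 respiratory chain genes, 3 were lower and 0 higher (median -0.36), beside 4.21% and 4.42% of all genes tested. The other annotated cells had medians of -0.44 and -0.18 on these lists. Gapdh, a glycolytic enzyme gene, had a log2 ratio of -0.95.

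Cell cycle RNA stood on the day 7 side. Cells with UMIs of 4 or more cell cycle genes were 41 of 255 (16.1%) at day 7 and 10 of 487 (2.05%) at day 21, at unequal depth. Of 20 cell cycle genes listed, 6 were tested and 2 were over 2-fold lower at day 21. Ccnb2, a mitotic cyclin gene, was at 40.7 CPM at day 7 and 5.98 CPM at day 21, and Birc5, the survivin gene, at 23.6 and 2.30 CPM. The log2 ratio of Ccnb2 was -2.74, -1.39 without the cells with 4 or more cell cycle genes and -3.96 after thinning, and that of Birc5 was -3.30, -2.02 and -5.46. A UMI of Ccnb2 was found in 10.98% of the day 7 cells and 2.05% of the day 21 cells, again at unequal depth. The authors' annotation has a separate class for dividing cells, and the cells of that class are not counted here. Of 11 replication-dependent histone genes tested, 4 were lower and 1 higher.

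Adhesion and cytoskeleton genes were led by caveolae, membrane pits that sense stretch. Of 6 tested caveolar genes, 3 were over 2-fold higher and 0 lower (median 0.91, other annotated cells 1.52). Cav1 was at 29.2 CPM at day 7, 168 CPM at day 21 and 172 CPM in intact nerve (5.75-fold higher, 4.70 to 7.10), Cav2 at 6.69, 47.8 and 53.9 CPM (7.14-fold higher) and Cavin1 at 137, 315 and 283 CPM (2.29-fold higher). In all 3 the day 21 level lay nearer to the intact than to the day 7 level. The other annotated cells had higher Cav1 at day 21, 694 CPM, up from 45.4 CPM.

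Guidance genes steer axons and vessels, and 4 of 14 tested were over 2-fold higher and 0 lower (median 0.33). Ntn4 was given above. The semaphorin and VEGF co-receptor gene Nrp2 was at 40.9, 145 and 152 CPM (3.55-fold higher) and Sema6a at 14.2, 42.1 and 50.1 CPM (2.96-fold higher). Sema3b was at 5.62 and 23.0 CPM, with a log2 ratio of 2.01 that was 0.98 after thinning. Of 11 junction and barrier genes, 2 were higher and 1, Gjb2, lower. Jam2, a junctional adhesion molecule gene, was at 28.9, 74.9 and 176 CPM (2.59-fold higher).

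Contractile genes had 1 higher and 4 lower of 13 tested (median -0.27, other annotated cells -0.83). Actn1, an actin cross-linker gene, was at 65.8 and 16.1 CPM (4.09-fold lower) and Tpm2, a tropomyosin gene, at 194 and 65.5 CPM (2.96-fold lower). Acta2, the myofibroblast actin gene named after its values were seen, was low at both times, at 18.7 and 2.76 CPM. Mylk, the myosin light chain kinase gene, was the higher one, at 13.6, 42.1 and 121 CPM (3.08-fold higher), but its log2 ratio of 1.61 was 0.58 after thinning.

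The genes that mark the endoneurial class were lower, higher or about equal. Of 10 endoneurial markers, 8 were within 2-fold, 0 higher and 2, Wif1 and Spp1, lower, beside 4.21% of all genes on the lower side. Their median log2 ratio was -0.01, over members that differed in both directions. Apod, the apolipoprotein that serves as the class's most abundant marker, was at 15412 CPM at day 7, 15233 CPM at day 21 and 25252 CPM in intact nerve. The transcription factor gene Sox9 was at 145 CPM at both bridge times, Etv1 at 115 and 117 CPM and Meox1 at 104 and 129 CPM. Osr2 was at 148, 256 and 361 CPM (1.73-fold higher) and the eotaxin gene Ccl11 at 1180.3, 1948 and 2248 CPM (1.65-fold higher). The cell cycle inhibitor gene Cdkn2a was at 301, 165 and 340.1 CPM (1.83-fold lower).

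Among 31 tested transcription factor genes of nerve mesenchyme, 2 were over 2-fold higher and 3 lower (median 0.22), beside 4.42% and 4.21% of all genes tested. Creb5 was at 14.7 CPM at day 7, 61.1 CPM at day 21 and 72.3 CPM in intact nerve (4.15-fold higher), and Prrx1, a mesenchymal homeobox gene, at 38.5, 88.7 and 91.4 CPM (2.30-fold higher). Foxd1 and Runx1 lay just beyond 2-fold on the lower side, at 183 and 90.5 CPM and at 87.8 and 43.4 CPM. Of 21 immediate-early genes, which respond within minutes to stimuli and to tissue dissociation, 1 was higher and 1 lower: Egr1 at 725 and 1539.5 CPM (2.12-fold higher) and Nr4a2 at 241 and 95.8 CPM (2.51-fold lower). Their summed level was 15386 CPM at day 7, 20597 CPM at day 21 and 20795 CPM in intact nerve.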

How the data were processed

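Sorted cells of 3 libraries were profiled by droplet single-cell RNA-seq. The authors deposited filtered matrices of raw UMI counts (whole numbers, a gene by a barcode), whose software, per the file headers, was Cell Ranger 6.1.2. Besides it, the submitters' processing notes name Seurat 4.0.1, Cell Ranger 3.0.2 and the mouse builds GRCm38 and mm10. Classes come from the authors' deposited cell annotation, which lists 7235 cells, of which 7234 were found in the matrices. How the classes were drawn and doublets handled is not given in the sources used here, and no doublet caller was run.

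Counts were summed over the endoneurial cells of a library and divided by their total (CPM). Genes with at least 10 CPM in either bridge library were compared. The CPM ratio has an exact conditional binomial 95% interval, shares of cells have exact Clopper-Pearson intervals, and log2 ratios have 0.5 counts added. A gene was called past 2-fold, with no test, because each group is 1 library. Shares after thinning used 2000 UMIs a cell without replacement, which left out 0 cells. Thinned values come from separate random draws, and the intervals do not cover the spread between draws. Thinning also leaves fewer UMIs in each sum, so the thinned ratios of genes at low level are less precise. Intervals recovered known ratios on simulated counts that held counting error only. The simulation left out the clumping of UMIs in few cells, so it does not show how the intervals fare there. The alternatives were other weightings, scalings and filters.

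Genes named are the 15 largest ratios each way with at least 50 CPM and a UMI in 10% of cells of the higher library, leaving out mitochondrial, ribosomal protein, clone-numbered, sex-linked, transgene and other-cell marker genes. Up to 4 members of each of 43 process lists with at least 20 CPM, the endoneurial markers, Pdgfrb and Pdgfra were also named. Others were chosen after their values were seen. Some genes of the rule are not reported here. Members and lists were chosen with earlier results of these data known. Gene positions are from GENCODE (GRCm38), where 166 of 187 named genes have the same identifier version. Promoter sequences are from RefSeq, with entries for 22 of the 30 genes of largest ratio. Python 3.11.15, numpy 2.4.6, scipy 1.17.1 and pandas 2.3.3 were used.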

Additional observations from a re-analysis of the deposited data

Results flagged for a closer look

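For 3 of the 187 named genes the bridge libraries differed by over 2-fold in opposite directions in endoneurial cells and in the other annotated cells. Only the 113 named genes past 2-fold in endoneurial cells could meet this rule. The share over all genes tested was not computed, so the count of 3 is a description only. With 1 library a time, the difference between the populations was not tested. Dlk1 had a log2 ratio, day 21 over day 7, of 2.64 in endoneurial cells and -2.65 in the others. After thinning to 2000 UMIs a cell, Dlk1 was in 3.53% of endoneurial cells at day 7 and 23.2% at day 21, while 32.7% of epineurial cells held it at day 7 and 9.15% at day 21. Mylk had a log2 ratio of 1.61 in endoneurial cells, while the others had 15.2 CPM at day 7 and 3.34 CPM at day 21. With all UMIs, 183 at day 21 and 51 at day 7, its endoneurial fold was 3.08 (2.25 to 4.29). After thinning its log2 ratio was 0.58, within 2-fold, in sums that hold fewer UMIs of the gene. In the perineurial class Mylk was at 1.60 and 1.64 CPM and in the dividing class at 67.8 and 18.2 CPM. Cdkn1c, an imprinted cell cycle inhibitor gene, had a log2 ratio of 1.09 in endoneurial cells (101 and 216 CPM), while the others had 484 and 198 CPM. The endoneurial Cdkn1c ratio was 0.85 after thinning, also within 2-fold, and Cdkn1c was at 847 and 186 CPM in the epineurial class but 185 and 229 CPM in the perineurial class. The others are a pool whose perineurial part was 241 of 1525 cells at day 7 and 2069 of 3624 at day 21, and the part of this shift in the opposite order was not tested.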

How the results depend on the processing

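The counts of genes past 2-fold, 360 higher and 343 lower, moved with thinning, with the filter and with the fold used. They were 935 and 609 when each cell was thinned to 2000 UMIs, 130 and 121 with a filter at 50 CPM, 1482 and 1327 with a filter at more than 3 counts, and 1020 and 828 past 1.5-fold. Under the other settings the counts stayed within 1.5 times. Thinning evens the depth of the cells and also leaves fewer UMIs in each sum, and these effects were not told apart. The Wnt ligand median, from 2 genes, was 0.02 after thinning in place of 0.96. Of 45 list medians, 44 stayed within the interval of the list's median after thinning and all 45 under equal weight per cell, median of ratios scaling, and leaving out the cells above the 95th percentile of UMIs, with markers of another class, with 4 or more cell cycle genes, or with shared barcodes. None of the named genes past 2-fold changed sign under these 7 settings, while 13 fell within 2-fold after thinning, 9 under equal weight, and at most 3 under each other setting. No paired analysis was possible because each group is 1 library. Genes near 10 CPM rest on few UMIs, and their ratios are the least precise.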
